A study of Mus musculus with 3 samples.

Results

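Colony-stimulating factors are secreted proteins that drive the survival, growth and differentiation of myeloid cells, and 7 genes of this system were followed by symbol across the cell classes of mouse liver. They are the ligands Csf1, Il34 and Csf3 and the receptor genes Csf1r, Csf3r, Csf2rb and Flt3, and each matched 1 of the 31253 genes listed. The study profiled liver cells by droplet-based 3' single-cell RNA-seq in 3 libraries, 1 per group, and compared irradiated livers with and without Gsdmd, the pore-forming protein of pyroptosis, in hepatocytes. FL_control names the library titled GsdmdFL/FL -Ctrl (genotype tag WT, treatment Ctrl), and FL_IR that titled GsdmdFL/FL -IR (genotype tag WT), from liver taken 7 days after 30 Gy. dHep_IR names the library titled Gsdmd∆Hep-IR (genotype tag gsdmd-ko), with the same dose and day. By their titles the first pair carries floxed Gsdmd, the control included. No unirradiated Gsdmd∆Hep library was analysed here, and the sources used here give no Cre driver, strain, age or number of animals per library.

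The ligand Csf1 acts through the receptor tyrosine kinase encoded by Csf1r, which macrophages need for survival, and Il34 encodes a second ligand of that receptor. Csf3 encodes granulocyte colony-stimulating factor, the main driver of neutrophil production, and Csf3r its receptor. Csf2rb encodes the beta chain shared by the receptors for GM-CSF, IL-3 and IL-5, and Flt3 encodes the receptor of the dendritic cell growth factor Flt3 ligand. In liver, Kupffer cells are the resident macrophages and sit inside the sinusoids beside the endothelium, where Csf1 reaches them.

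After filtering and doublet removal 6458, 6545 and 7261 cells remained in FL_control, FL_IR and dHep_IR, with medians of 5838, 7409 and 7967 unique molecular identifiers (UMIs, counted molecules) per cell. Classes were named from marker genes that include none of the 7, and each value below is the summed UMIs of a gene scaled to a common total of class UMIs per library (CPM), with an exact Poisson 95% interval. With 1 library per group no test was possible, the intervals cover counting error only, and differences between libraries cannot be separated from differences between animals. The gene the labels say was deleted goes against them: over all kept cells Gsdmd reached 36.4 CPM for FL_control, 7.21 for FL_IR and 36.9 for dHep_IR, lowest in a library labelled floxed, so library names below are labels only. Hepatocyte-like cells, in which the deletion is labelled, were few (104, 42 and 8). They held 22 UMIs of Gsdmd in FL_control, 2 in FL_IR and 1 in dHep_IR, which leaves the deletion unchecked. Between 10 and 60 cell barcodes were shared by pairs of libraries (10 between FL_control and FL_IR, 32 between FL_IR and dHep_IR and 60 between FL_control and dHep_IR), and 23 of 55, 5 of 48 and 28 of 86 kept cholangiocyte-like cells of FL_control, FL_IR and dHep_IR carried such a barcode. Leaving them out moved none of the 60 member ratios beyond its counting interval. Different clusters held a class before and after irradiation, so a class is compared here across unlike clusters.

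Endothelial-like cells held most Csf1 transcripts in every library. They carried 2490 of 3967 Csf1 UMIs in FL_control (62.8%, exact Clopper-Pearson 95% interval 61.2 to 64.3%), 1600 of 2792 in FL_IR (57.3%, 55.4 to 59.2%) and 1947 of 3128 in dHep_IR (62.2%, 60.5 to 63.9%), from 38.9%, 36.8% and 39.5% of cells. The level was 116 CPM (111 to 120) in FL_control, 99.5 (94.6 to 104) in FL_IR and 105 (101 to 110) in dHep_IR. By CPM these 3 levels lay close together: FL_IR was 1.16-fold lower than FL_control (1.09 to 1.24), and dHep_IR differed from FL_IR by 1.06-fold (0.992 to 1.13). With UMIs per cell in place of CPM, FL_IR lay further below FL_control, by more than the counting interval, as given in the closing section. Within the class, Csf1 ranged from 85.8 to 130 CPM over 4 clusters of FL_control, from 46.1 to 156 over 7 of FL_IR and from 73.8 to 167 over 7 of dHep_IR, so clusters of the same library lay further apart than the libraries did. The 2 largest clusters of FL_control, of 1342 and 684 cells, had Clec14a, F8 and Kdr among their leading genes, whereas all 7 clusters of the irradiated libraries had Inhbb among theirs.

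Per UMI, neutrophil-like, mesenchymal-like and mast or basophil-like cells of FL_control had more Csf1 than endothelium. Neutrophil-like cells had 677 CPM of Csf1 in FL_control (639 to 718), 39.8 in FL_IR (37.4 to 42.4) and 35.1 in dHep_IR (32.9 to 37.5), described with their receptor genes below. In stellate or mesenchymal-like cells the values were 196 CPM from 25 cells, 101 from 10 cells and 121 from 9 cells. The 14 basophil or mast-like cells of FL_control reached 1591 CPM (122 UMIs), 3.08% of all Csf1 UMIs from 0.217% of the cells. Kupffer-like cells had 5.24, 16.6 and 18.7 CPM from 31, 52 and 64 UMIs, low values among which the irradiated libraries were higher: FL_IR was 3.17-fold above FL_control (1.996 to 5.12), but 0.78 on the log2 scale, under 2-fold, by the mean of per-cell CPM. By that mean dHep_IR against FL_control was also under 2-fold (0.95). The neutrophil markers in these Kupffer-like cells, given with Csf2rb below, were higher there too, and their part in this difference was not tested. Monocyte-like cells had 11.2, 3.48 and 4.92 CPM, and T-like cells 3.10, 4.13 and 1.87.

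**Figure D1:**
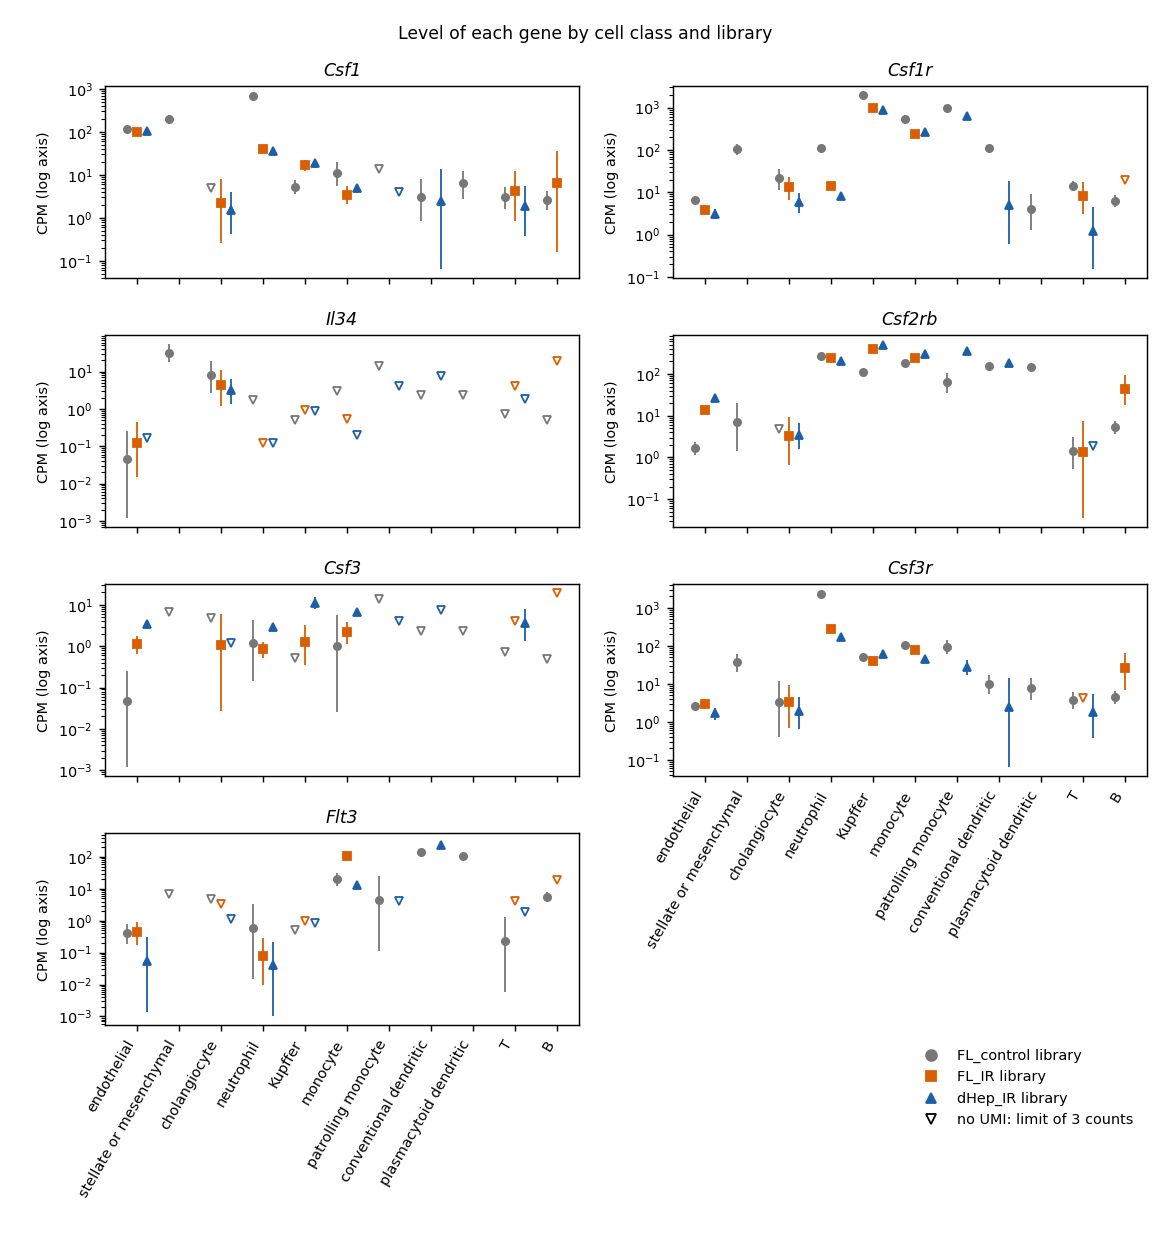
Level of each of the 7 genes (CPM, log axis) by cell class for classes with at least 20 cells in a library; bars are exact Poisson 95% intervals (counting error only) and open triangles mark the limit that no UMI allows. Csf1r was highest in Kupffer-like cells, Csf3r in neutrophil-like cells, and Flt3 of FL_IR was high in monocyte-like cells.

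Il34 was nearly absent from these suspensions, with 20 UMIs in FL_control, 9 in FL_IR and 8 in dHep_IR. Of the 20 in FL_control, 14 lay in the 25 mesenchymal-like cells (32.3 CPM, 17.6 to 54.2) and 5 in cholangiocyte-like cells (8.16 CPM, 2.65 to 19.1). Cholangiocyte-like cells, which line the bile ducts, held 4 of 9 UMIs in FL_IR and all 8 in dHep_IR. Many cells of this class carried a barcode shared between libraries, and the ratios recomputed without such barcodes include none of Il34. Kupffer-like cells had no Il34 UMI in any library. The low recovery of mesenchymal-like cells (25, 10 and 9) limits any statement on this ligand, and no comparison between libraries was made. Il34 spans chr8:110741829-110805924 on the minus strand of GRCm38 and overlaps the genes Gm15894 and Gm15895 on the other strand.

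Csf3 was rare in FL_control and more frequent in dHep_IR than in FL_IR. All kept cells together had 7 Csf3 UMIs in FL_control, 56 in FL_IR and 294 in dHep_IR, which is 0.145, 1.03 and 4.12 CPM. Within Kupffer-like cells there were 0, 4 and 38 UMIs, a level 8.68-fold higher in dHep_IR than in FL_IR (3.12 to 33.5) and at least 21.9-fold higher than the 3-count limit of FL_control. Monocyte-like cells had 1, 12 and 106 UMIs (3.12-fold higher in dHep_IR than in FL_IR, 1.71 to 6.23), neutrophil-like cells 2, 21 and 74 (3.52-fold, 2.14 to 6.02) and endothelial-like cells 1, 18 and 64 (3.10-fold, 1.81 to 5.55). The interval of each of these 4 ratios lay above 1. With doublets kept the monocyte value was 0.77 on the log2 scale, below the 2-fold line. As a background, the T-like clusters of dHep_IR had 1.44 and 5.50 CPM of Csf3 and those of FL_IR none. Neutrophil-like clusters of dHep_IR ran from 0 to 21.2 CPM and endothelial-like ones from 0.218 to 13.9, so some lay no higher than that background. As whole classes, both had levels between those of the T-like clusters of dHep_IR, so neither class stood above that background. The part of RNA from other cells in these values was not tested.

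A few clusters held most of the Csf3 in dHep_IR. A monocyte-like cluster led by Saa3, Ly6i and Ccl22 had 60 of the 106 UMIs of its class (36.2 CPM from 114 cells). A second, led by Vcan, Saa3 and Adora2b, had 27 (18.02 CPM from 120 cells). Among endothelial-like cells, the cluster led by Rspo3, Ccn2 and Inhbb had 32 of 64 UMIs (13.9 CPM from 301 cells), and its 162 cells in FL_IR had none. Among neutrophil-like cells 52 of 74 UMIs lay in the cluster led by Stfa2l1 and Retnlg (21.2 CPM), which in FL_IR held 9 of 21 (4.15 CPM). After thinning each cell to 2000 UMIs, 2.69% of Kupffer-like cells of dHep_IR had a Csf3 UMI and 0.305% of those of FL_IR, beside 0% of T-like cells in all 3 libraries; unthinned, these shares were 5.48% and 0.664%, beside 0.957% of T-like cells of dHep_IR.

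Csf1r marked the mononuclear phagocytes and was lower in Kupffer-like cells of both irradiated libraries. Csf1r spans chr18:61100598-61132149 on the plus strand of GRCm38, overlaps Hmgxb3 on the minus strand and holds Mir6983. Kupffer-like cells had 1938 CPM in FL_control (1903 to 1974), 1005 in FL_IR (970 to 1041) and 892 in dHep_IR (861 to 924). The level of FL_IR was 1.93-fold lower than that of FL_control (1.85 to 2.01), just short of 2-fold, and dHep_IR was 1.13-fold lower than FL_IR (1.07 to 1.18); with UMIs per cell in place of CPM the second difference had the opposite sign. After thinning, 96.4%, 83.5% and 82.8% of Kupffer-like cells had a Csf1r UMI, beside 1.55%, 2.75% and 0.5% of T-like cells. Median depths were 9705, 4928.5 and 7021 UMIs in Kupffer-like and 6308, 5990 and 6064 in T-like cells. In FL_control the class lay in a cluster led by Cd5l, Clec4f and Folr2, and in the irradiated libraries in a cluster led by Marco, Cxcl13 and Vsig4, while the 10 Kupffer markers summed to 40549, 43987 and 39817 CPM.

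In monocyte-like cells the Csf1r level was 532 CPM for FL_control (488 to 580), 240 for FL_IR (227 to 253) and 266 for dHep_IR (258 to 274). Patrolling monocyte-like cells, which are known for high Csf1r, had 987 CPM from 39 cells of FL_control and 650 from 67 cells of dHep_IR, and only 3 such cells were found in FL_IR. In dHep_IR the level ran from 51.8 CPM in a monocyte-like cluster led by Vcan, Prtn3 and Dmkn to 557 in a cluster led by Retnla and Gpnmb, and in FL_IR from 155 to 280 over 4 clusters. The mean of dHep_IR therefore covered a wider range than that of FL_IR. An unnamed cluster of 79 cells of FL_control, led by Prg4, Alox15 and Serpinb2, had 460 CPM. Conventional dendritic-like cells had 112 CPM in FL_control and 5.04 in the 22 such cells of dHep_IR. The FL_control value joins a cluster led by Apol7c and Xcr1, at 43.9 CPM, and one led by Ubd and Cd209a, at 168. The dHep_IR cells had no Cd209a UMI and their Csf1r value rests on few molecules, so the 2 libraries are not compared here.

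The Csf1r UMIs sat in different classes in the 3 libraries. Kupffer-like cells held 84.5% of Csf1r UMIs in FL_control (83.9 to 85.1%), 63.5% in FL_IR (62.2 to 64.9%) and 37.3% in dHep_IR (36.2 to 38.3%). Monocyte-like cells held 3.84%, 26.5% and 50.1%, and made up 1.502%, 7.12% and 14.2% of cells. Shares of cells depend on what the suspension recovered.

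**Figure D2:**
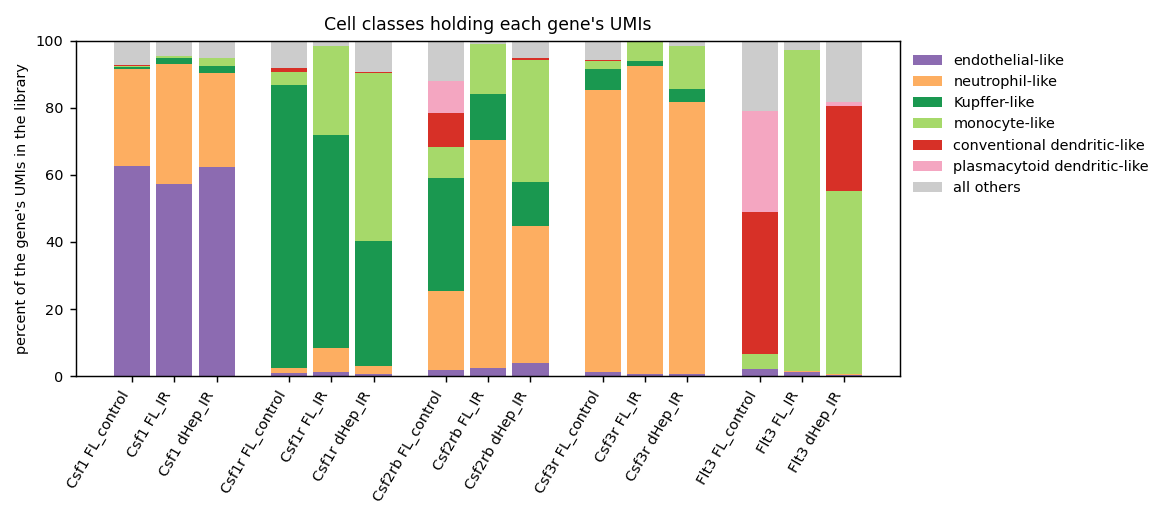
Percent of the UMIs of Csf1, Csf1r, Csf2rb, Csf3r and Flt3 lying in each cell class, by library, all bars starting at 0 and reaching 100. The endothelial-like part of Csf1 lies between 57.3% and 62.8%, whereas the Kupffer-like part of Csf1r goes from 84.5% in FL_control to 37.3% in dHep_IR and 95.9% of the Flt3 UMIs of FL_IR lie in monocyte-like cells.

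Csf2rb was higher in Kupffer-like cells of the irradiated libraries, the opposite of Csf1r in the same cells. Its levels were 109 CPM in FL_control (101 to 118), 393 in FL_IR (371 to 415) and 492 in dHep_IR (469 to 517), 3.60-fold higher in FL_IR than in FL_control (3.27 to 3.96) and 1.25-fold higher in dHep_IR than in FL_IR (1.16 to 1.35). After thinning, 15.7%, 43.0% and 52.2% of Kupffer-like cells had a UMI, beside 0% of T-like cells in each library. The partner chain of the GM-CSF receptor, Csf2ra, lay at 166, 211 and 201 CPM in the same cells, so the beta chain differed more than the alpha chain. The neutrophil markers summed to 99.8, 2667 and 1950 CPM in Kupffer-like cells, with 10 of 12 detected in FL_control (Cxcr2 and Ly6g at 0) and all 12 in both others, so they were also higher in the irradiated libraries. Kupffer-like cells had 1228 Csf2rb against 127 Csf3r UMIs in FL_IR and 1685 against 213 in dHep_IR. Neutrophil-like cells had 6020 against 6875 in FL_IR and 5177 against 4302 in dHep_IR, so Csf2rb was below Csf3r there in FL_IR and above it in dHep_IR. The part of neutrophil RNA in the Kupffer-like values was not tested further.

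Csf2rb spans chr15:78325752-78353847 on the plus strand of GRCm38, and its close mouse paralog Csf2rb2, a beta chain of the IL-3 receptor, can share reads with it. The sources used here do not say how reads matching both were counted, so each value is uncertain to that extent. Csf2rb2 had 30.1, 64.6 and 103 CPM in Kupffer-like cells, with the same order of libraries. The ligand genes were scarce: of Csf2, which encodes GM-CSF, FL_control had 54 UMIs, FL_IR 1 and dHep_IR 18, of which T-like cells held 46, 0 and 7, and Il3 had none.

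Monocyte-like cells had 181 CPM of Csf2rb in FL_control (155 to 210), 241 in FL_IR (228 to 254) and 299 in dHep_IR (291 to 308), an order shared with Kupffer-like cells but with smaller steps. Patrolling monocyte-like cells had 64.0 CPM in FL_control (35.0 to 107) and 359 in dHep_IR (317 to 405). Conventional and plasmacytoid dendritic-like cells of FL_control had 152 and 148 CPM, and the 14 basophil or mast-like cells 665. In neutrophil-like cells the levels were 268, 241 and 207 CPM. FL_IR was 1.11-fold below FL_control there by CPM (1.01 to 1.23) but above it with TMM factors (0.69 on the log2 scale) and per cell, so no direction is given for that difference.

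Endothelial-like cells had little Csf2rb, and more of it in the irradiated libraries: 1.67 CPM in FL_control (1.17 to 2.31), 13.8 in FL_IR (12.04 to 15.7) and 26.6 in dHep_IR (24.3 to 29.0). The level of FL_IR was 8.26-fold that of FL_control (5.79 to 12.1), and that of dHep_IR 1.93-fold that of FL_IR (1.64 to 2.27). In the same cells the 12 neutrophil markers summed to 51.1, 1421 and 1641 CPM (Ly6g at 0 in FL_control, all detected in the others) and the Kupffer markers to 374, 155 and 144 CPM. Csf3r lay at 2.55, 2.98 and 1.68 CPM there, with 222 Csf2rb against 48 Csf3r UMIs in FL_IR and 491 against 31 in dHep_IR. The counts of neutrophil-like cells are given above, and the part of neutrophil RNA in the endothelial values was not tested further. Across endothelial-like clusters Csf2rb was lowest in the cluster led by Rspo3 and Ccn2 (4.16 CPM in FL_IR and 8.68 in dHep_IR) and highest in a cluster of 397 and 529 cells led by Inhbb, Ctsj, Lyve1 and Col13a1 (25.5 and 43.4). After thinning, 0.432%, 2.85% and 4.58% of endothelial-like cells had a UMI, beside 0% of T-like cells.

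Csf3r, the receptor that neutrophils carry, was far lower in neutrophil-like cells of both irradiated libraries than in FL_control. The gene spans chr4:126024550-126044440 on the plus strand of GRCm38. Its levels in neutrophil-like cells were 2357 CPM in FL_control (2284 to 2431), 275 in FL_IR (268 to 281) and 172 in dHep_IR (167 to 177). FL_IR was 8.57-fold lower than FL_control (8.24 to 8.92), and dHep_IR 1.60-fold lower than FL_IR (1.54 to 1.66). Csf1 was 17.01-fold lower (15.6 to 18.5) and Csf1r 8.12-fold lower (6.77 to 9.72) in FL_IR than in FL_control in these cells. The cells differed in depth, with medians of 3489, 9852 and 13266.5 UMIs, and over all genes of the class the FL_IR to FL_control ratios had a median of -0.58 (log2), the shift against which these values are read. With UMIs per cell, Csf3r went from 8.63 in FL_control to 2.94 in FL_IR and 2.33 in dHep_IR, and Csf1 from 2.48 to 0.425 and 0.476. Both genes thus remained lower in the irradiated libraries on either scale, and for Csf1 the order of FL_IR and dHep_IR flipped between the scales.

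The 12 neutrophil markers summed to 129206, 392070 and 422012 CPM in the neutrophil-like cells of FL_control, FL_IR and dHep_IR, which made up 7.11%, 35.8% and 25.5% of cells. Those of FL_control lay almost all in a cluster of 451 cells, led by G0s2, Hcar2 and Il1f9, that was nearly empty in the other libraries. The granule genes Ngp, Camp, Ltf, Lcn2 and Mmp8, 5 of the 12 markers and transcribed mostly before neutrophils mature, summed to 1166 CPM there. In FL_IR the 6 clusters ran from 9591 to 50210 CPM of granule genes, and along that order Csf3r went from 760 to 112 CPM, Csf1 from 158 to 13.1 and Csf2rb from 370 to 174. The 6 clusters of dHep_IR ran from 17187 to 57124 CPM of granule genes. Their Csf3r level was highest, 596 CPM, in the cluster led by Stfa2l1 and Retnlg, where Csf1 was 171 CPM and Csf1r 43.2, and lowest, 78.5 CPM, in a cluster led by Stfa2, Stfa3 and Cstdc5, where Csf1 was 11.4 CPM and Csf1r 1.82. In both libraries Csf3r, Csf1 and Csf1r were thus highest in that Stfa2l1-led cluster, and no irradiated cluster with at least 20 cells reached the FL_control level of any of these 3 genes. Csf2rb varied less: the Stfa2l1-led cluster, at 370 CPM in FL_IR and 332 in dHep_IR, lay above the 270 CPM of the FL_control cluster (246 to 297), and clusters at 294 and 265 in FL_IR and 260 in dHep_IR lay within its interval.

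**Figure D3:**
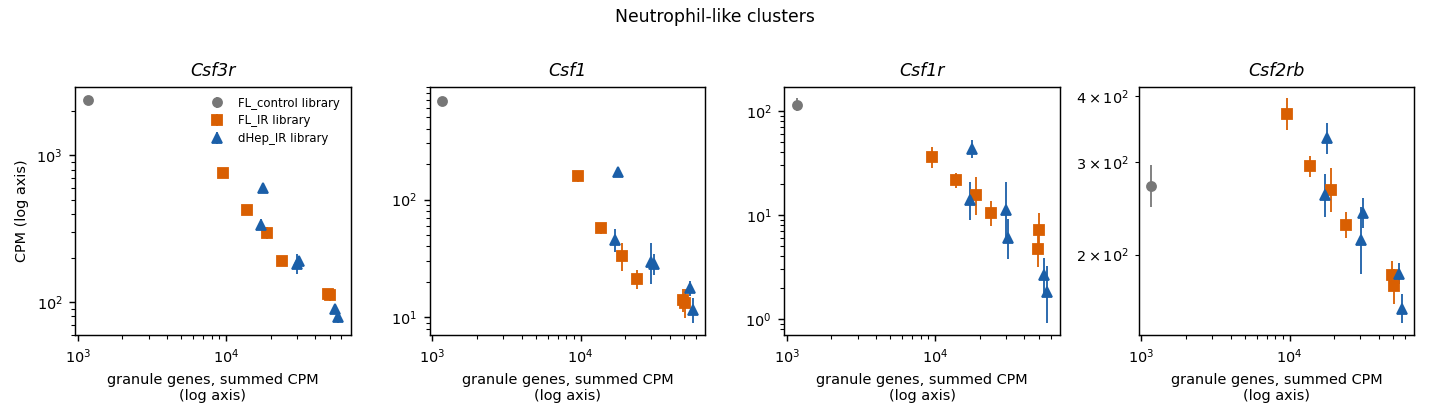
Csf3r, Csf1, Csf1r and Csf2rb (CPM, log axes) against summed granule genes in each neutrophil-like cluster with at least 20 cells, by library, with exact Poisson 95% intervals. Csf3r and Csf1 go down along the clusters of FL_IR, the dHep_IR cluster with most Csf3r has the second lowest level of granule genes among the 6, and the FL_control cluster stands far left at 2377 CPM of Csf3r and 686 of Csf1.

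Csf3r and Csf1 were also compared within cells, with all neutrophil-like clusters of a library pooled. Both genes were highest in the same cluster of each irradiated library, so these shares do not show a relation within a cluster. After thinning, a Csf1 UMI was found in 9.05% of Csf3r-positive and 5.09% of Csf3r-negative neutrophil-like cells of FL_IR, and in 13.3% and 6.37% of those of dHep_IR. In FL_control the order was the opposite, with a Csf1 UMI in 44.1% of Csf3r-positive and 61.5% of Csf3r-negative cells. Nearly every cell there had Csf3r, and the second share rests on 8 cells with Csf1 but no Csf3r. The promoters of Csf3r and Csf1 are shown because both genes went down along the same order of neutrophil-like clusters in FL_IR. Each window covers 250 bases before to 50 after the annotated start (RefSeq, GRCm38.p6), chr4:126024409-126024708 on the plus strand for Csf3r and chr3:107760420-107760719 on the minus strand for Csf1, printed 5′ to 3′, with capitals marking GAGGAA, the core that the myeloid factor PU.1 binds.
Csf3r: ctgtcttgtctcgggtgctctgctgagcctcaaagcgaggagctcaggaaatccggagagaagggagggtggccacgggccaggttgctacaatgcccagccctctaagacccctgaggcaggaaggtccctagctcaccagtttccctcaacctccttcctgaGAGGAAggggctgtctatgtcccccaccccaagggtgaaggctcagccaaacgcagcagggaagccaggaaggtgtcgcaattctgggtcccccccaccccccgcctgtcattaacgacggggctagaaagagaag
Csf1: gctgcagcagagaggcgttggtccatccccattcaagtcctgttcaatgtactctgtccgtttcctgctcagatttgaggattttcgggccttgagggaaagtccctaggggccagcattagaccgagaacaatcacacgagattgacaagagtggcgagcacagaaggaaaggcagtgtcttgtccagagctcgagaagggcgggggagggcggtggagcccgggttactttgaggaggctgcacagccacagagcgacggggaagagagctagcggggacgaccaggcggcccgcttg
Searched on both strands, GAGGAA occurred once in the Csf3r window, on the printed strand, and not in that of Csf1, and 28.3% of 32851 promoters of this length held it. TTGCNNAA, a short form of the C/EBP motif that does not overlap GAGGAA, occurred in neither and in 10.8% of all promoters. Promoter windows were found for 3 of the 7 genes.

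Outside neutrophils, Csf3r lay at 107 CPM in monocyte-like cells of FL_control (87.8 to 130), 77.3 in FL_IR (70.1 to 84.99) and 44.0 in dHep_IR (40.8 to 47.4), an order that went down while the summed neutrophil markers of these cells were 767, 12310 and 26110 CPM, with 9 of 12 detected in FL_control (Ly6g, Camp and Ltf at 0) and all 12 in both others. The part of neutrophil RNA in these values was not tested. Kupffer-like cells had 51.1, 40.6 and 62.2 CPM. Neutrophil-like cells held 84.1%, 91.7% and 81.1% of all Csf3r UMIs.

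Flt3 was a dendritic cell gene in FL_control and a monocyte gene in FL_IR. Flt3 spans chr5:147330741-147400489 on the minus strand of GRCm38 and overlaps Gm26597 on the other strand. In FL_control the conventional dendritic-like cells had 148 CPM (127 to 170) and the plasmacytoid dendritic-like cells 108 (90.4 to 128), and they held 188 and 135 of 446 UMIs respectively. The cluster of conventional cells led by Apol7c and Xcr1 reached 212 CPM and that led by Ubd and Cd209a 95.5. FL_IR had no cell of either class (0 of 6545 cells, which allows a share of up to 0.0458%), and dHep_IR had 22 conventional dendritic-like cells with 237 CPM (191 to 290).

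Flt3 of monocyte-like cells was at 20.4 CPM for FL_control (12.5 to 31.6), 106 for FL_IR (97.4 to 115) and 13.1 for dHep_IR (11.4 to 15.1). FL_IR was 5.18-fold higher than FL_control (3.32 to 8.54) and dHep_IR 8.06-fold lower than FL_IR (6.85 to 9.5), 2 ratios that share the library labelled FL_IR. The 4 FL_IR monocyte-like clusters with at least 20 cells were all high, from 99.0 to 115 CPM. In dHep_IR 8 of 9 clusters lay between 2.21 and 15.4 CPM, and the ninth, led by Ccl17, Tnip3 and Mgl2, was at 58.4. No FL_IR cluster interval overlapped one of dHep_IR except that of the smallest FL_IR cluster (75.2 to 128), which met the upper end of the Ccl17-led cluster (44.3 to 75.7). After thinning, 2.25%, 18.6% and 2.34% of monocyte-like cells had a Flt3 UMI, beside 0.0432%, 0.127% and 0% of endothelial-like cells. The conventional dendritic markers summed to 285, 169 and 267 CPM in these monocyte-like cells, with 10, 11 and 13 of 13 detected (Xcr1, Fscn1 and Cacnb3 at 0 in FL_control, Ccr7 and Ccl22 in FL_IR), lowest in FL_IR where Flt3 was highest. Flt3l, the ligand gene, lay between 31.7 and 41.2 CPM in T-like cells of the 3 libraries, and in endothelial-like cells it was higher in FL_control (17.4 CPM) than in FL_IR (7.09) and dHep_IR (6.23).

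**Figure D4:**
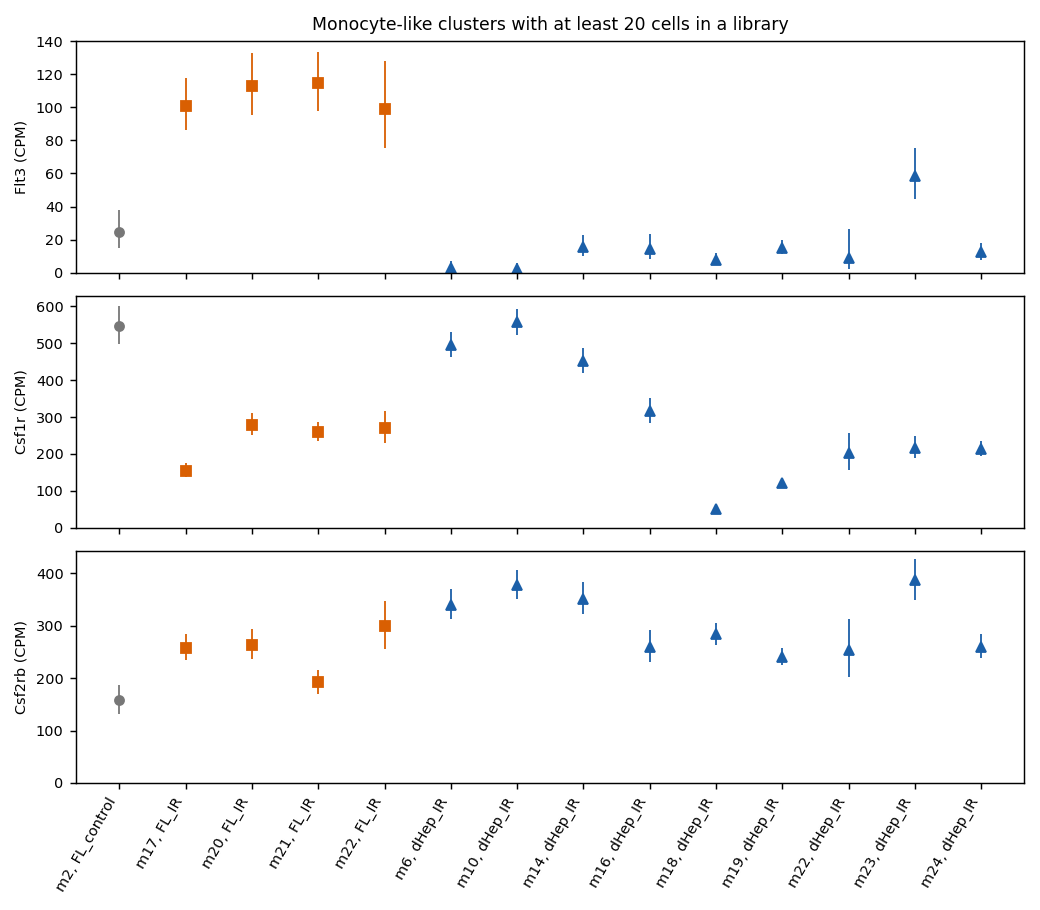
Flt3, Csf1r and Csf2rb (CPM, linear axes from 0) in each monocyte-like cluster with at least 20 cells in a library, with exact Poisson 95% intervals. The 4 clusters of FL_IR have 99.0 to 115 CPM of Flt3, above the 9 of dHep_IR, while Csf1r runs from 51.8 to 557 CPM over the clusters of dHep_IR.

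Counts of members past 2-fold were read against all genes of a class with at least 20 UMIs over the pair of libraries. Between FL_IR and FL_control, Kupffer-like cells had 2 of 4 measured members higher (Csf1 and Csf2rb) and 0 lower, where 6.56% of 10405 genes were higher, 9.59% lower and 16.2% either. Endothelial-like cells had 1 of 4 higher (Csf2rb) and 0 lower, where 9.57% of 12478 genes were higher, 16.4% lower and 25.9% either. Monocyte-like cells had 1 of 5 higher (Flt3) and 2 lower (Csf1 and Csf1r), where 9.67% of 8935 genes were higher, 10.2% lower and 19.9% either, though with UMIs per cell Csf1r fell short of 2-fold (-0.93 on the log2 scale). Neutrophil-like cells had 0 of 5 higher and 3 lower (Csf1, Csf1r and Csf3r), where 9.8% of 9385 genes were higher, 32.7% lower and 42.5% either, so a lower value was common in that class. T-like cells had 0 of 1, where 3.99% of genes were higher, 10.9% lower and 14.9% either.

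Between dHep_IR and FL_IR, Csf3 in 4 classes and Flt3 in monocyte-like cells were the members past 2-fold. For neutrophil-like and endothelial-like cells, the Csf3 level of dHep_IR lay within the range of its T-like clusters, as given above. Kupffer-like cells had 1 of 5 higher and 0 lower, where 3.08% of 9612 genes were higher, 6.51% lower and 9.59% either. Endothelial-like cells also had 1 of 5 higher and 0 lower, where 1.55% of 12033 genes were higher, 2.19% lower and 3.74% either. Monocyte-like cells had 1 of 6 higher and 1 lower, where 6.8% of 10560 genes were higher, 3.49% lower and 10.3% either. In neutrophil-like cells 1 of 5 was higher and 0 lower, where 4.17% of 10113 genes were higher, 3.22% lower and 7.4% either. T-like cells had no measured member, with 6.26% of genes higher, 3.24% lower and 9.5% either.

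The third comparison, dHep_IR against FL_control, shares a library with each of the others and is not independent of them. Kupffer-like cells had 3 of 5 members higher (Csf1, Csf2rb and Csf3) and 1 lower (Csf1r), where 6.2% of genes were higher, 15% lower and 21.2% either. Endothelial-like cells had 2 of 5 higher (Csf2rb and Csf3) and 1 lower (Csf1r), where 8.43% were higher, 19% lower and 27.5% either. Csf1r was lower in 6 of the 7 classes compared. It had few UMIs in the T-like and cholangiocyte-like ones and a low level in the endothelial-like one. Monocyte-like cells had 1 of 6 higher (Csf3) and 3 lower (Csf1, Csf1r and Csf3r), where 11.9% were higher, 12% lower and 23.9% either. Neutrophil-like cells had 1 of 5 higher (Csf3) and 3 lower (Csf1, Csf1r and Csf3r), where 11% were higher, 36.6% lower and 47.6% either. Csf1r was the 1 measured member of T-like and of cholangiocyte-like cells and was lower in both, where 4.56% and 5.93% of genes were higher, 8.34% and 15.2% lower and 12.9% and 21.1% either. Both rest on few molecules: 59 UMIs in FL_control and 2 in dHep_IR in T-like cells, whose low shares of cells with a Csf1r UMI served above as the background, and 13 and 15 in cholangiocyte-like cells. In T-like cells the Kupffer markers were also lower in dHep_IR (114 and 53.7 CPM, 10 and 9 of 10 detected, Timd4 at 0 in dHep_IR), as were the monocyte markers (1299 and 474 CPM, 10 and 9 of 10, Vcan at 0 in dHep_IR). In cholangiocyte-like cells the Kupffer markers summed to 84.9 and 73.3 CPM (8 of 10 detected in each) and the monocyte markers to 573 and 763 CPM (6 and 9 of 10). These values are therefore not read as a change of Csf1r in either class. Endothelial-like clusters of FL_control had 3.27 to 7.21 CPM of Csf1r, below the 14.1 CPM of T-like cells there. Those of dHep_IR had 1.95 to 5.19 CPM, above the 1.25 CPM of its T-like cells. The Kupffer markers of endothelial-like cells were 374 CPM in FL_control and 144 in dHep_IR, and their part was not tested. The endothelial-like value is not read as a change of Csf1r either. NK or ILC1-like cells had 0 of 1, where 3.56% were higher, 17.3% lower and 20.8% either. Several of these counts rest on values near the line: Csf3 in neutrophil-like cells had 2 UMIs in FL_control and an interval of 0.664 to 20.9-fold, and 4 alternatives put it below 2-fold (0.895 to 0.98 on the log2 scale). Csf1r in endothelial-like cells fell short under 4 alternatives (-0.85 to -0.96), and Csf1r (-0.43 to -0.99) and Csf1 (-0.68 to -0.93) in monocyte-like cells under 3 each. Csf1r in Kupffer-like cells fell short with TMM factors (-0.97) and Csf3r in monocyte-like cells per cell (-0.72).

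Other genes of these pathways were taken from lists of related ligands and receptors, signalling proteins, feedback and induced targets, and lineage transcription factors. Of the 10 related genes, 6 were measured in Kupffer-like cells, of which Csf2rb2 was higher and Kitl, the ligand of Kit, lower in FL_IR than in FL_control, where 6.56% and 9.59% of all genes were. Between dHep_IR and FL_IR 0 of 6 passed, with 3.08% of all genes higher and 6.51% lower. In endothelial-like cells Csf2rb2 was 3.04-fold higher in dHep_IR than in FL_IR (2.49 to 3.75), the 1 of 6 past 2-fold, with 1.55% of all genes higher. In neutrophil-like cells the receptor gene Kit was the 1 of 6 (2.03-fold higher), with 4.17% of all genes higher. Of the 23 signalling genes, which include the kinases Jak2 and Lyn, 23 were measured and 0 passed 2-fold between dHep_IR and FL_IR in Kupffer-like, monocyte-like and neutrophil-like cells, with 0 of 22 in endothelial-like cells. Their medians were -0.21, -0.23, -0.26 and -0.03 on the log2 scale, against -0.16, -0.07, -0.09 and -0.08 for all genes. Between FL_IR and FL_control 0 of 23 passed in Kupffer-like cells. Inpp5d, a phosphatase, and the adaptor Shc1 were higher in monocyte-like cells, 4 of 23 passed in endothelial-like cells (1 higher and 3 lower, with 9.57% and 16.4% of all genes), and 10 of 23 were lower in neutrophil-like cells, where 32.7% of all genes were lower and the median was -0.73 against -0.58 for all genes.

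The list of feedback and induced targets differed more. In monocyte-like cells 5 of its 15 genes were higher and 1 lower in dHep_IR than in FL_IR, where 6.8% and 3.49% of all genes were, and the list median was 0.37 against -0.07. In the same cells, from FL_IR to dHep_IR, the 10 Kupffer markers summed to 218 and 1148 CPM, the 12 neutrophil markers to 12310 and 26110 and the 10 monocyte markers to 22307 and 14584, all of them detected in both libraries. The part of these in the list's difference was not tested. Cish, a STAT5-induced inhibitor of cytokine signalling, had 6.13, 0.732 and 18.1 CPM from 6, 4 and 280 UMIs in the 3 libraries, and was 24.7-fold higher in dHep_IR than in FL_IR (9.56 to 91.4). Socs2, from the same inhibitor family, had 3.07, 1.10 and 14.5 CPM from 3, 6 and 224 UMIs, 13.2-fold higher in dHep_IR than in FL_IR (5.97 to 36.3). Ccnd2, a cyclin of early cell cycle, had 28.6, 8.97 and 79.8 CPM, and Socs1 14.3, 4.03 and 21.2. In all 4 genes FL_IR was the lowest library and dHep_IR the highest, although the intervals of FL_control and dHep_IR overlap for Socs1. Those of FL_control and FL_IR overlap for Socs2, so its order of these libraries is not settled. Socs3, which STAT3 induces, was at 331, 477 and 372 CPM.

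Kupffer-like cells had 3 genes of that list higher in dHep_IR than in FL_IR and 2 lower, among 14 measured, with 3.08% and 6.51% of all genes. Cish was at 1.35, 2.56 and 15.8 CPM (6.17-fold higher in dHep_IR than in FL_IR, 2.92 to 15), Socs2 at 7.27, 57.6 and 149 CPM (2.59-fold, 2.18 to 3.08) and Ccnd2 at 14.7, 9.60 and 25.7. Fos, an immediate early gene, was at 1364, 1706 and 601 CPM. Against FL_control, FL_IR was higher for 4 of 13 (Socs3, Socs2, Bcl2l1 and Pim1) and lower for Socs1, with 6.56% and 9.59% of all genes: Socs3 went from 25.7 to 316 CPM (12.3-fold, 10.4 to 14.7). In neutrophil-like cells Cish was at 1.78, 4.04 and 14.1 CPM, 3.49-fold higher in dHep_IR than in FL_IR (2.79 to 4.40), and 3 of 15 genes were higher and 2 (Egr1 and Egr2) lower, with 4.17% and 3.22% of all genes. In endothelial-like cells 0 of 15 passed between the irradiated libraries, with 1.55% of all genes higher and 2.19% lower. Cish was thus higher in dHep_IR than in FL_IR in all 3 myeloid classes, 3 classes in which Csf3 was also higher. In endothelial-like cells Csf3 was higher too, but Cish differed little, at 39.1 CPM in dHep_IR and 38.5 in FL_IR (1.02-fold, 0.911 to 1.13). The Csf3 level of neutrophil-like and of endothelial-like cells of dHep_IR lay, however, within the range of its T-like clusters. The relation of Cish to Csf3 was not tested.

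**Figure D5:**
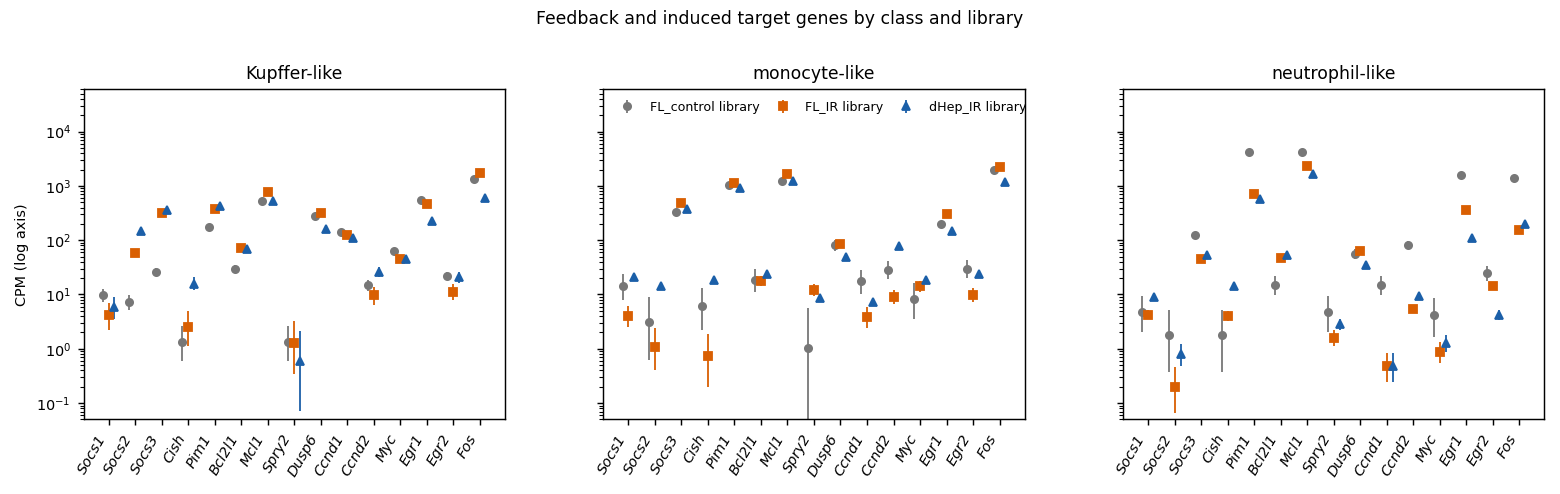
Level (CPM, log axis) of the 15 feedback and induced target genes in Kupffer-like, monocyte-like and neutrophil-like cells of each library, with exact Poisson 95% intervals; genes with no UMI have no point. Cish stands higher in dHep_IR than in FL_IR in each panel, at 15.8, 18.1 and 14.1 CPM.

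Among the 18 lineage transcription factors, monocyte-like cells had 5 of 16 measured higher in dHep_IR than in FL_IR and 0 lower, with 6.8% and 3.49% of all genes, led by Nr1h3 (1.46 and 12.9 CPM), Spic (2.01 and 11.5) and Irf4 (2.01 and 6.47), all low in level in FL_IR and dHep_IR. FL_control had 21.5, 3.07 and 16.4 CPM of these genes, from 21, 3 and 16 UMIs. Nr1h3 and Irf4 were thus highest in FL_control and lowest in FL_IR. Nr1h3 and Spic were far higher in Kupffer-like cells, at 293 and 426 CPM in dHep_IR, and the Kupffer markers given above for these monocyte-like cells were also higher in dHep_IR; their part in the result was not tested. Kupffer-like cells had 3 of 14 lower and 0 higher, with 6.51% and 3.08% of all genes: in FL_IR and dHep_IR Klf4 was at 325 and 85.04 CPM, Cebpa at 102 and 36.8, and Maf at 746 and 293. In endothelial-like cells Cebpb, a factor of inflammatory and granulocyte genes, was at 1275 CPM in FL_IR, 1351 in dHep_IR and 93.2 in FL_control. It is 1 gene of the list of 18, and 9.57% of all genes of that class were higher and 16.4% lower in FL_IR than in FL_control. The count for the list in that class is not given here, so Cebpb does not stand for the list. Spi1, which encodes PU.1, differed little, at 526, 503 and 520 CPM in Kupffer-like and 872, 740 and 671 in neutrophil-like cells of FL_control, FL_IR and dHep_IR.

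The genes whose levels ran most like each member were sought over 24 sums of class and library with at least 50 cells, among 7572 genes, as a description with libraries and classes shared between points. Csf1r was closest to Clec4a1 (Pearson r = 0.96 of log2(CPM + 1)), Tbxas1 (0.95) and Adgre1, which encodes the macrophage antigen F4/80 (0.94). Csf3r was closest to Hcar2 (0.96), 1600010M07Rik (0.92) and Msrb1 (0.92), and Csf2rb to Pirb (0.94), Mefv (0.94) and Nfam1 (0.93). Csf1 was closest to Tut7 (0.88), Hdc (0.83) and Arap3 (0.82), Flt3 to Cd209a (0.81), Tnni2 (0.77) and Ryr1 (0.77), and Csf3 to Riok3 (0.71), Hilpda (0.68) and Saa3 (0.67).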

How the data were processed

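Per the file headers and the submitters' processing notes, the authors made the deposited UMI count matrices with Cell Ranger 6.1.1 on mm10. CASAVA 1.8 and Seurat 4.0.3 are named there too, and the gene annotation and counting options are not given in the sources used here. Total UMIs over all deposited barcodes were 52858425, 59228905 and 78694038 in FL_control, FL_IR and dHep_IR. Cells with at least 500 UMIs, 250 genes and at most 25% mitochondrial UMIs were kept, and doublets were removed with Scrublet (expected rate 6%; 160, 235 and 291 cells). Clustering used scanpy 1.11.5 (2000 variable genes without the 7 members, 30 principal components, 15 neighbours, Leiden resolution 2, mononuclear myeloid and cycling clusters split again), giving 60 clusters, 6 of them unnamed. Clusters were named from marker lists that hold none of the members; the scoring rule was set after the clusters were seen. Raw counts were summed per class and library. CPM carry exact Poisson, shares Clopper-Pearson and ratios exact conditional 95% intervals, all for counting error only, since a library is 1 sample. A ratio counts as past 2-fold with at least 20 UMIs over both libraries and at least 50 cells in each; log2 ratios add a prior count of 0.5; a count of 0 is bounded by 3 counts. The calls and intervals were tested on simulated data. Named genes are the 7 members, up to 4 genes of largest ratio per list, the 3 most alike genes of members with at least 200 UMIs, Gsdmd and class markers; Csf2, Csf2ra, Csf2rb2, Flt3l, Il3, Pim1 and Spi1 were named after their values were seen. Members and lists were chosen with earlier results of these data known. Alternatives are given in the closing section (edgeR 4.0.16 for TMM factors). Some genes of the pathway lists are not reported here.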

Additional observations from a re-analysis of the deposited data

How the results depend on the processing

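No paired analysis was possible because each group has 1 library. Alternatives chosen after seeing the data were UMIs per cell, leaving out shared barcodes, leaving out the Ccl17-led monocyte-like cluster and counting a haemoglobin-led cluster as endothelial-like. Over 10 alternatives and 588 recomputed member ratios, 0 of those past 2-fold reversed, 504 moved by less than their counting interval and 84 by more, and 262 of 282 past 2-fold stayed so. Log2 ratios of FL_IR over FL_control that moved were these. UMIs per cell gave -0.58 for Csf1 in endothelial-like cells; -2.54, 1.39 and -1.56 for Csf1, Csf2rb and Csf3r in neutrophil-like cells; -1.51 and 1.28 for Csf1r and Csf2rb in Kupffer-like cells; and -0.93 for Csf1r in monocyte-like cells. TMM factors gave -3.24, 0.69 and -2.25 for Csf1, Csf2rb and Csf3r in neutrophil-like cells. The mean of per-cell CPM gave -3.75 and -2.80 for Csf1 and Csf3r there and 1.52 for Csf2rb in Kupffer-like cells. Doublets kept gave -3.17 for Csf3r in neutrophil-like and -1.03 for Csf1r in Kupffer-like cells; Csf1r and Flt3 in monocyte-like cells had no value, with under 50 such cells in FL_control. For dHep_IR over FL_IR, UMIs per cell gave 0.16, 0.12 and -0.34 for Csf1, Csf2rb and Csf3r in neutrophil-like cells, 0.27 and 0.76 for Csf1r and Csf2rb in Kupffer-like cells, and 0.50 and -2.65 for Csf1r and Flt3 in monocyte-like cells. TMM factors gave -0.13 and -0.59 for Csf2rb and Csf3r in neutrophil-like cells and -0.0335 and 0.46 for Csf1r and Csf2rb in Kupffer-like cells. The mean of per-cell CPM gave 0.25 and -0.45 for Csf1 and Csf3r in neutrophil-like cells. Resolution 1 gave -0.77 for Csf3r in neutrophil-like and -0.0325 for Csf1r in monocyte-like cells. Doublets kept gave -0.14 and -2.74 for Csf1r and Flt3 in monocyte-like cells, and leaving out the Ccl17-led cluster -3.38 for Flt3. The list of related ligands and receptors in neutrophil-like cells, FL_IR over FL_control, changed sign to 0.31 with at least 100 UMIs, where fewer genes are measured. The cause of the other shifts was not tested. A 1.5-fold line or 100 UMIs changed the number of genes past the line by over 1.5 times in 14 of 16 counts. Il34 and Csf3 rest on few molecules, and depth limits both.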
